A study of Homo sapiens with 4 samples.

Results

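Core and linker histone genes were described across engineered prostate cancer tissues (EPCaTs) and a flat coculture. The 60 members described are rows of the deposited table whose symbol follows the current names of the H1, H2A, H2B, H3 and H4 genes, or the older HIST names, out of 17791 gene symbols in all. Of these, 53 are replication-dependent genes, named as members of the histone clusters, with 42 on chromosome 6 and 11 on chromosome 1. The other 7 are replacement histones: the linker histone H1-10, H2AX, H2AZ1, H2AZ2 and H2AJ, and the pair H3-3A and H3-3B. They lie on 7 different chromosomes. The choice of members used symbols only and no measured value.

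The tissues were made of PC-3, an established metastatic prostate cancer line, and BJ-5ta, foreskin fibroblasts immortalised by telomerase, mixed at 5 to 1 in a polyethylene glycol-fibrinogen gel (PF). There were 3 such gels, taken on day 15: PF alone as the control, PF with 2% PEGDA (polyethylene glycol diacrylate, which adds crosslinks) and PF with 3% PEGDA. In the fourth group, called 2D here, PC-3 and BJ-5ta were grown together without a gel; its day and cell ratio are not given in the sources used here. Each group had 1 library, pooled over several tissues for the EPCaTs, so no spread between cultures could be measured and no test between groups was made.

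Histones package DNA: the core histones H2A, H2B, H3 and H4 form the nucleosome, and the linker histone H1 sits where DNA enters and leaves it. Replication-dependent genes are transcribed mainly in S phase, from clusters of intronless genes, and most of their mRNAs end in a stem-loop in place of a poly-A tail. Replacement histones are made through the cell cycle from ordinary polyadenylated mRNAs. Some replication-dependent genes also give polyadenylated transcripts, which are known from differentiated and non-dividing cells. The libraries were made with a TruSeq kit that selects poly-A RNA, so for replication-dependent genes the counts mainly cover that fraction and not the stem-loop mRNA.

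The stem-loop is the feature that sets the replication-dependent mRNAs apart, and its letters are shown for 6 of these genes as examples of its forms, and for H2AX. The letters searched in GENCODE 29 transcripts, on the transcript strand only, were GG, 2 free bases, CTT, 1 free base, T, 1 free base, AG, 2 free bases and CC. They were found in 27 of the 53 replication-dependent genes and in 1 of 7 replacement genes, H2AX, against 0.266% of 83129 protein-coding transcripts. Each line gives the DNA sense sequence on GRCh38 with the stem-loop in capitals and 5 bases on each side.
H2AC6: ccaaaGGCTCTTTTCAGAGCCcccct
H2BC21: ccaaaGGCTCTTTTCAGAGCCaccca
H2BC4: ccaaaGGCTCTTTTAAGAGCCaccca
H2BC5: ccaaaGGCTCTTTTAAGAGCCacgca
H4C15: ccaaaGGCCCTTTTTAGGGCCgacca
H4C8: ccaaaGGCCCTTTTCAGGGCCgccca
H2AX: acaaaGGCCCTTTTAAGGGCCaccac
The form in H2AC6 and H2BC21 was shared by 16 genes, that of H2BC4 and H2BC5 by 3 genes (with H2BC7), and that of H4C8 by 3 H4 genes. In all the genes shown, an annotated transcript runs on past the stem-loop. It does so by 1729 bases in H2BC21 and by up to 1655 in H4C8 and 1314 in H4C15. The longest runs in H2AC6 and H2AX are 1128 and 1044 bases, and those in H2BC4 and H2BC5 are 116 and 39. A signal for poly-A addition, AATAAA or ATTAAA, follows the stem-loop in an annotated transcript of 18 replication-dependent genes. The models of H1-2 (642 bases) and H2BC12 (381 bases) hold no stem-loop, and a model of that size can stop at the coding sequence, so no match there says nothing of the gene's own 3′ end.

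Promoters are shown for H2AC6 and H2BC12, abundant replication-dependent members that were highest in 2D, for H2BC21, which was lowest there, and for H2AX as a replacement gene with a stem-loop. Each is the RefSeq window of 250 bases before to 50 after the gene's start, GRCh38.p14, written along the gene's strand. Capitals mark the TATA box (searched as TATAAA), the CCAAT box (searched by those letters) and the octamer (searched as ATTTGCAT), each on both strands. Overlapping matches on the 2 strands are written as 1 run.
H2AC6, chr6:26123922-26124221, plus strand: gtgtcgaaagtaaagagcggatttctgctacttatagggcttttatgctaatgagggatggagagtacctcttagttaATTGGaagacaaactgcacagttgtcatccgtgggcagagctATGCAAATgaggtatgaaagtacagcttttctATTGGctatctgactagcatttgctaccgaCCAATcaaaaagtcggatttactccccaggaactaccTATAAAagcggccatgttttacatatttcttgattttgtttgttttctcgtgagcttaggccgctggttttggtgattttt
H2BC12, chr6:27146809-27147108, minus strand: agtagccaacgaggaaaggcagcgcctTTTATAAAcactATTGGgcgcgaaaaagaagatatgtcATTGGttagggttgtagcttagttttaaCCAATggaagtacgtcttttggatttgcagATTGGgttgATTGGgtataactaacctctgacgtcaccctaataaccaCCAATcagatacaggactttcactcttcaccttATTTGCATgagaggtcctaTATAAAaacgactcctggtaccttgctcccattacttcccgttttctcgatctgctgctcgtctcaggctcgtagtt
H2BC21, chr1:149886633-149886932, minus strand: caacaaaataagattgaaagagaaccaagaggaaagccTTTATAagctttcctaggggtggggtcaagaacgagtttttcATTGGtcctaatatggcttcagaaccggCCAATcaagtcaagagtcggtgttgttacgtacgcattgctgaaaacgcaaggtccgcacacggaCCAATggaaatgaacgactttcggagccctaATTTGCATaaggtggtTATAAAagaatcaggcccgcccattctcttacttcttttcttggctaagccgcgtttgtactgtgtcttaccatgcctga
H2AX, chr11:119095416-119095715, minus strand: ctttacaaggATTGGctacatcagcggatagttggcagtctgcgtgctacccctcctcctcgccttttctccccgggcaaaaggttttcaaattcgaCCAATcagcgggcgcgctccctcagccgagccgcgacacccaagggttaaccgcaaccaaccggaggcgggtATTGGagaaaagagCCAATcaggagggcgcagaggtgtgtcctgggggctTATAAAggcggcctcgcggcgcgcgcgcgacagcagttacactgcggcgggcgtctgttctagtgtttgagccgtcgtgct
A promoter was found for 58 of 60 members. ATTTGCAT lay in 43.1% of the 51 replication-dependent promoters, mostly of H2B (12 of 16) and H2A (9 of 13), and in 1.80% of 27305 RefSeq promoters. CCAAT lay in 86.3% against 35.7% of all promoters, with all 16 H2B and all 13 H2A promoters but only 1 of 8 H4 promoters. TATAAA lay in 64.7% against 12.0%. Among the 7 replacement promoters, 6 held CCAAT, 4 TATAAA and 1 the octamer. These matches describe letters in the window and do not show binding.

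The libraries held 13760301 to 15687894 counts. Levels are given as CPM, counts per 1000000 of a library size adjusted by TMM, the trimmed mean of M-values. A ratio of 2 libraries is a log2 ratio with an exact Clopper-Pearson 95% interval that covers counting error only, and a gene is called higher or lower where the ratio is at least 2-fold and the interval excludes no difference. Fibroblast markers had a summed level of 923, 1010.1 and 754 CPM in the PF, 2% and 3% gels and 4429.6 CPM in 2D, and 12, 11 and 11 of 15 tested were called lower than in 2D; S100A4 was called higher in both PEGDA gels. POSTN had 0 counts in both PEGDA gels and the rest were detected in every library. The 14 epithelial markers summed to 4418 CPM in 2D and 6156 to 6925 CPM in the gels. Of them 4, 5 and 5 were called higher in PF, 2% and 3%, none lower, and 3 stood below 2D in each gel. Over all tested genes 16.5%, 12.4% and 12.1% were called higher in these gels than in 2D, and 12.0%, 9.45% and 10.4% lower. Both summed levels differed between the gels and 2D, and their part in the histone ratios was not tested. In bulk RNA, fewer cells of a type and less RNA per cell cannot be told apart.

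The 60 histone genes held 0.246% of counts in PF, 0.291% in the 2% gel, 0.280% in the 3% gel and 0.234% in 2D, a larger share in both PEGDA gels than in PF or 2D. Replacement genes, 7 in number, gave more than the other 53 in every library, with summed levels of 1334, 1618, 1475 and 1312 CPM. The 53 replication-dependent genes summed to 981, 1259, 1348 and 1185 CPM in the same order, so that PF was lowest and the 3% gel highest.

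A few replication-dependent genes carried nearly all of these counts. Of the 53, 34 reached 1 CPM in some library and entered the ratios; the other 19, with at most 15 counts in any library, did not. The 17 members with at least 5 CPM in their highest library held 95.2% to 97.7% of replication-dependent counts. H1-2, H2AC6, H2BC4, H2BC5, H2BC12 and H2BC21, which are known for polyadenylated transcripts, held 63.7% in PF, 66.6% in the 2% gel, 67.8% in the 3% gel and 74.2% in 2D. Per kb of the longest annotated transcript, the highest median levels over the libraries were those of H2BC12 (626 CPM per kb), H1-2 (326) and H3-3B (271). The H2BC12 value rests on the short model above, which raises a level per kb.

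**Figure D1:**
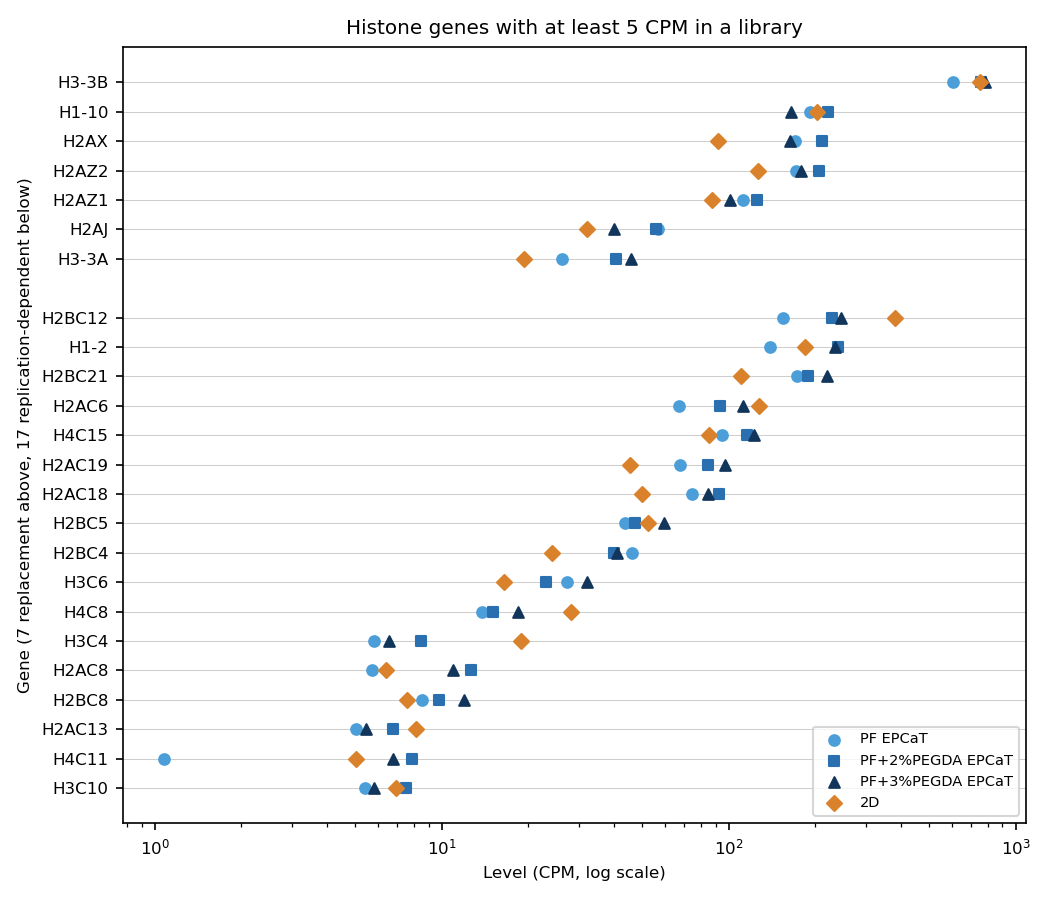
Level of each of the 24 histone genes with at least 5 CPM in a library (CPM, log axis), 1 point per library, with 7 replacement genes above and 17 replication-dependent genes below. H2BC12 was highest in 2D (380.0 CPM) and lowest in PF (154 CPM), while H2AX, H2AC18, H2AC19 and H2BC21 were lowest in 2D.

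Against 2D, replication-dependent genes as a class stood near the background of all tested genes. In PF, 5 of 34 were called higher and 4 lower, beside 16.5% higher and 12.0% lower of 14851 genes tested; the median log2 ratio was 0.27 beside 0.02 over all genes. In the 2% gel 2 were higher and 4 lower, beside 12.4% and 9.45%, with a median of 0.41. In the 3% gel 4 were higher and 5 lower, beside 12.1% and 10.4%, with a median of 0.06. With libraries scaled by total counts alone, the log2 ratio of every gene in PF against 2D shifts up by 0.18 and that of the 2% gel by 0.11; the share of called genes that were higher in PF then goes from 57.8% to 68.4%, and the replication-dependent counts become 8 higher and 3 lower in PF, 5 and 4 in the 2% gel, 6 and 4 in the 3% gel.

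Members of high and low level differed in their calls. Among the 17 abundant members, none was called higher in PF and 4 were lower (H2BC12, H3C4, H4C8 and H4C11), with a median log2 ratio of -0.27. That direction turned when a trend of the ratios with transcript length and GC content was removed: 3 were then higher and 2 lower, with a median of 0.18 and 11 of 17 above 0. Total-count scaling gave 1 higher and 3 lower, with a median of -0.09. The 17 less abundant ones gave the 5 higher calls of PF: H2BC7, H2BU1, H3C13, H4C12 and H4C14. All 5 were under 1 CPM in 2D, so each entered the ratios only through gels where it was higher. H4C12 and H4C14 passed the minimum of 1 CPM only in PF itself. The difference in calls between the levels thus depends in part on the filter. With near-identical copies summed, 3 higher calls remained. Summed over all 36 replication-dependent genes under 5 CPM, tested or not, the level was 46.9 CPM in PF, 36.3 in the 2% gel, 30.8 in the 3% gel and 27.6 in 2D, so PF stood 1.70-fold above 2D (interval 1.51 to 1.92), against 0.81-fold (0.79 to 0.82) for the sum of the abundant members. Without H4C12, H4C14 and the other less abundant near-identical copies the first ratio was 1.51-fold (1.33 to 1.72), and without H2BC12 the sum over the remaining 52 genes was 1.03-fold (1.00 to 1.05) in place of 0.83-fold for all 53. Leaving out H2BC12 alone thus brought the class sum in PF to about that of 2D. Narrower sums that also lack H2BC12 stayed below 2D. They were 0.81-fold (0.79 to 0.84) over members with whole values. Over members with under 50% of their 50-base stretches in other genes the value was 0.96-fold (0.93 to 0.99).

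A list of 30 S phase genes, such as RRM2, which makes deoxynucleotides, and CCNE2, a cyclin of S phase entry, stood far from the histone genes in the same ratios. Of these, 21 were called higher in PF than in 2D, 17 in the 2% gel and 13 in the 3% gel, with none lower. The shares called higher over all genes were 16.5%, 12.4% and 12.1%. The S phase medians were 1.70, 1.18 and 0.80. The ratios of histone and S phase genes to 2D share the 2D library.

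**Figure D2:**
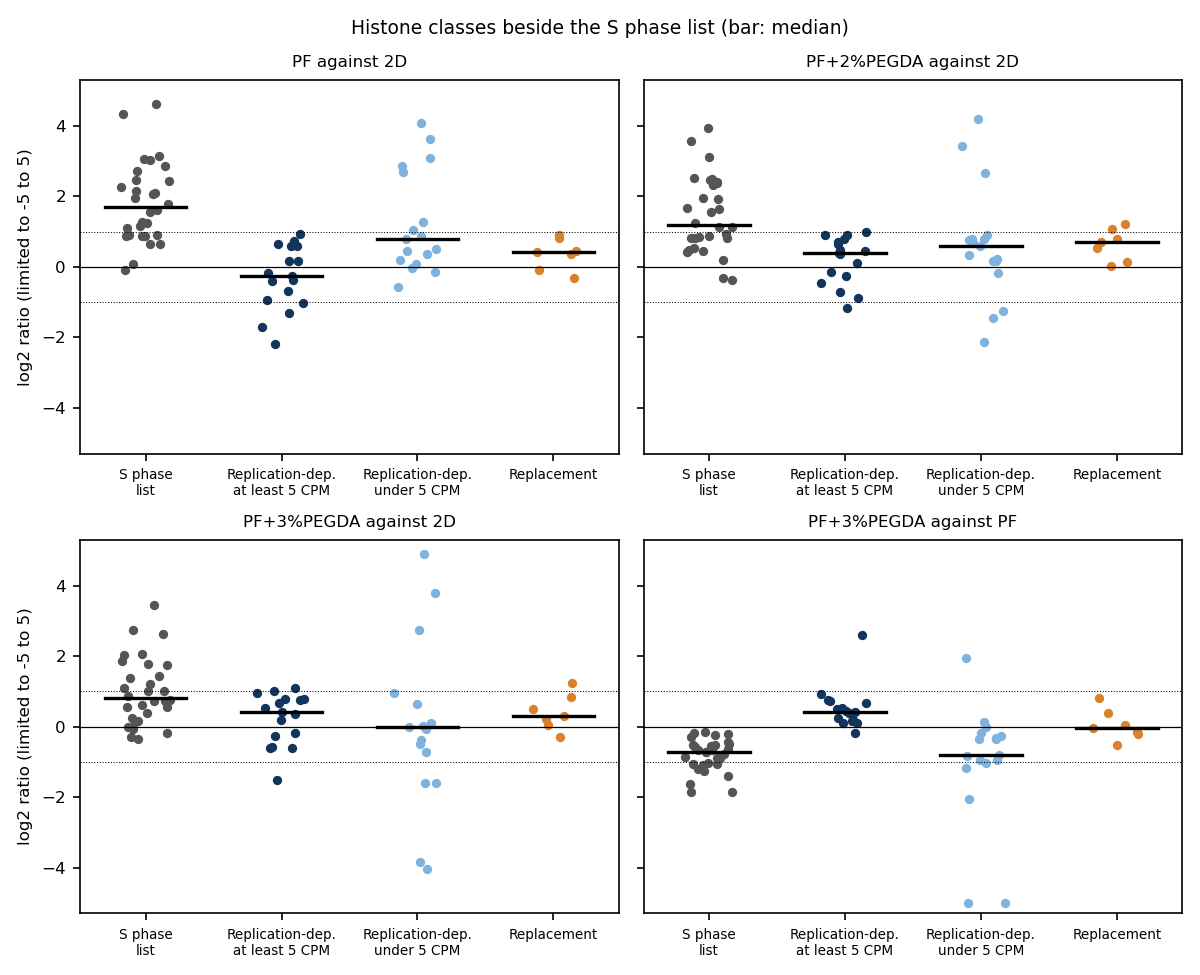
log2 ratio of single genes (points) and median (bar) for 30 S phase genes, 17 replication-dependent genes with at least 5 CPM, 17 tested below it, and 7 replacement genes, in 4 pairs of libraries; dotted lines mark 2-fold, and 2 points under -5 are drawn at -5. S phase genes had medians of 1.70, 1.18 and 0.80 against 2D and -0.72 for 3% PEGDA against PF, where the abundant replication-dependent genes had 0.42.

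Among the linker histones of the clusters, H1-2 alone was abundant. It measured 139.8 CPM in PF, 239.6 in the 2% gel, 234 in the 3% gel and 184 in 2D, so both PEGDA gels were above 2D and PF was below it. The log2 ratios to 2D were -0.40, 0.38 and 0.35, none at the 2-fold size. H1-3 stayed between 3.00 and 4.70 CPM, and H1-4, H1-5 and the testis gene H1-6 did not pass the minimum level.

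The abundant H2A genes took different places against 2D. H2AC18 and H2AC19, a near-identical pair, measured 74.3 and 67.8 CPM in PF, 92.8 and 84.7 in the 2% gel, 84.8 and 97.4 in the 3% gel, and 49.7 and 45.4 in 2D. All gels were above 2D for both genes. Only H2AC19 in the 3% gel was called, at 2.15-fold (1.96 to 2.36), and since 97.1% of its 50-base stretches occur in H2AC18 the counts cannot be kept apart with certainty; the summed pair measured 142, 177, 182 and 95.2 CPM, 1.92-fold above 2D in the 3% gel and under the 2-fold size. Both genes pass 2-fold in the 2% gel with total-count scaling (log2 1.01 each), and without the length and GC trend in PF (1.05 each) and the 2% gel (1.02 each), as does H2AC18 in the 3% gel (1.06).

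H2AC6 went the other way. It measured 67.1 CPM in PF, 93.0 in the 2% gel, 112 in the 3% gel and 128 in 2D, lowest in PF and highest in 2D. The ratio to 2D was -0.93 in PF, 1.91-fold lower (1.77 to 2.06), and -0.46 and -0.20 in the PEGDA gels, none called. H2AC8 measured 5.70, 12.6, 10.9 and 6.4 CPM, with both PEGDA gels above PF and 2D. Its level in the 2% gel was called higher than in PF, 2.22-fold (1.73 to 2.86), while the removal of a trend with transcript length and GC content leaves a log2 ratio of 0.67 and ends that call. H2AC13 stayed between 5.04 and 8.11 CPM.

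H2B gave the most abundant replication-dependent gene. H2BC12 measured 154 CPM in PF, 229.7 in the 2% gel, 247 in the 3% gel and 380.0 in 2D, and every gel was below 2D. It was called lower in PF, 2.46-fold (2.35 to 2.58), with log2 ratios of -0.73 and -0.62 in the 2% and 3% gels, which were not called. With the length and GC trend removed, the PF ratio is -0.82 and the call ends. Its reads can also be shared with H2BS1, a copy outside the clusters, and 74.1% of its 50-base stretches occur in other genes; the 2 genes summed were 2.49-fold lower in PF.

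H2BC21, on chromosome 1, showed the reverse order against 2D. It measured 174 CPM in PF, 189.5 in the 2% gel, 221 in the 3% gel and 110.4 in 2D. The interval of the 3% ratio, 1.88 to 2.12-fold, spans the 2-fold size and its value lies just below it, so that it was not called, and it is called under total-count scaling (log2 1.08) and without the length and GC trend (1.05). H2BC4 measured 46.1, 39.8, 40.9 and 24.3 CPM, again with 2D lowest, and its PF ratio of 1.89-fold (1.67 to 2.15) was not called; it becomes 1.38 on the log2 scale without the length and GC trend. H2BC5 (43.4 to 59.4 CPM) and H2BC8 (7.56 to 12.0 CPM) were called in no pair.

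H2AC6 and H2BC4 start 246 bases apart on opposite strands, so that both starts lie in the H2AC6 window printed above. In PF the log2 ratio to 2D was -0.93 (-1.04 to -0.83) for H2AC6 and 0.92 (0.74 to 1.11) for H2BC4. In the 2% gel these were -0.46 and 0.71, and in the 3% gel -0.20 and 0.75. The neighbours thus stood on opposite sides of 2D in each gel, with intervals that did not meet. H2AC8 and H2BC8, 233 bases apart, had 0.98 and 0.37 in the 2% gel and 0.77 and 0.66 in the 3% gel. In PF, H2AC8 measured 5.70 CPM beside 6.40 in 2D, and H2BC8 8.52 beside 7.56. This pair thus also stood on opposite sides of 2D in PF, by small differences. H2AC20, 236 bases from H2BC21, had only 29 to 40 counts per library and log2 ratios of 0.01 to 0.18.

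**Figure D3:**
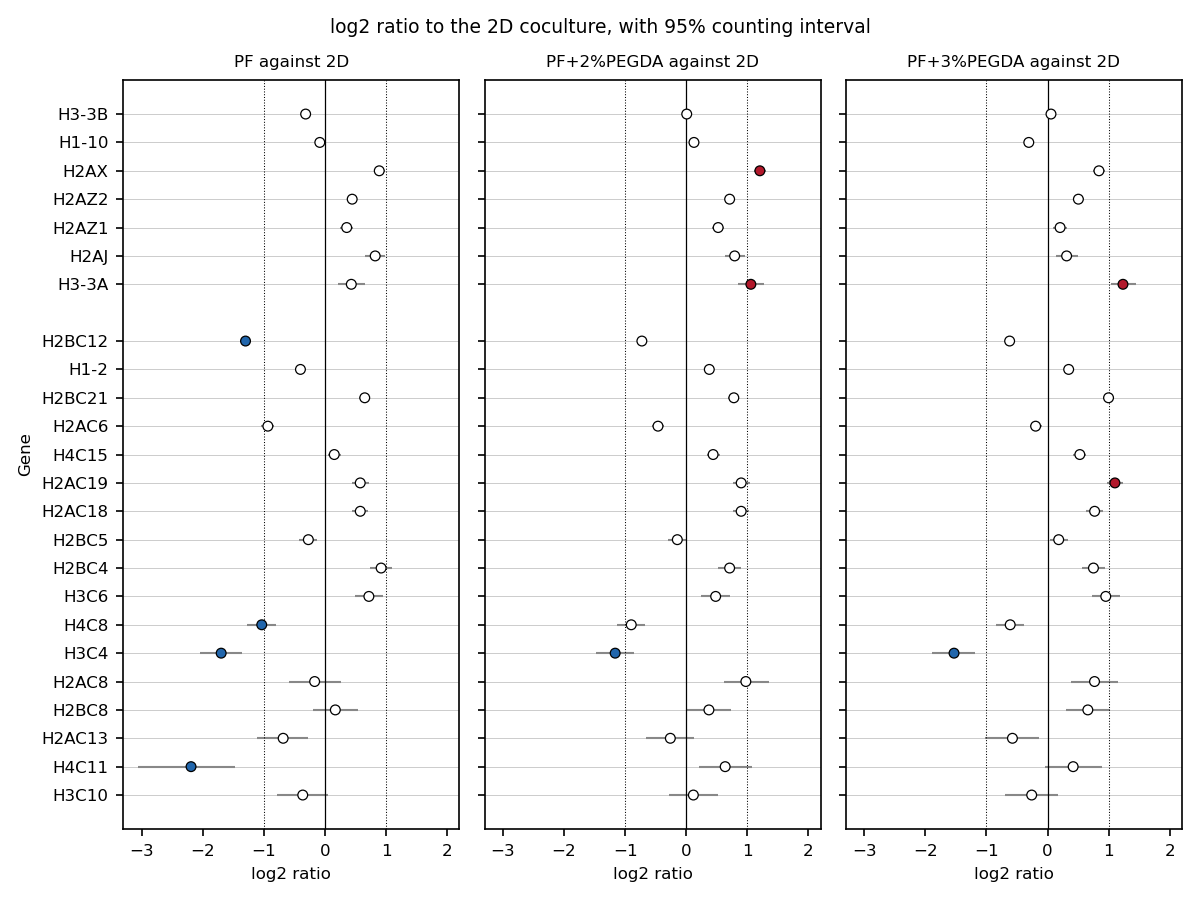
log2 ratio to 2D of the 24 histone genes with at least 5 CPM, 1 panel per gel, with the 95% counting interval as a line; red points were called higher, blue lower and white neither, and dotted lines mark 2-fold. In PF 4 replication-dependent genes were called lower (H2BC12, H4C8, H3C4 and H4C11), and H2AX and H3-3A were called higher in the 2% gel.

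H3 was the least counted core family, at 42.9 to 48.4 CPM summed over its 10 cluster genes. H3C6 measured 27.3, 23.1, 32.1 and 16.6 CPM, lowest in 2D, with a ratio of 0.95 in the 3% gel that was not called. H3C4 measured 5.82 CPM in PF, 8.44 in the 2% gel, 6.53 in the 3% gel and 18.9 in 2D, so every gel was well below 2D. It was called lower by 3.25-fold (2.57 to 4.14), 2.24-fold (1.82 to 2.78) and 2.90-fold (2.28 to 3.72). All of its 50-base stretches also lie in AL031777.3, an overlapping transcript of the annotation, so reads of the 2 cannot be told apart. H3C10 stayed between 5.40 and 7.54 CPM.

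H4 is encoded by many genes for 1 protein, and some are near copies of each other. H4C15 was the main one, at 94.7, 115, 123 and 85.1 CPM, with 2D lowest and no call. H4C8 measured 13.8, 15.1, 18.5 and 28.3 CPM, highest in 2D, and was called lower in PF, 2.05-fold (1.74 to 2.42). That call ends with total-count scaling (-0.85) and without the length and GC trend (-0.91).

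The remaining H4 calls belonged to near-identical copies, and every 50-base stretch of H4C12 occurs in another gene, H4C11 above all. H4C11 measured 1.08, 7.86, 6.75 and 5.04 CPM, and its copy H4C12 had 62, 15, 0 and 8 counts. So H4C11 was called lower and H4C12 higher in PF than in 2D, by 4.67-fold (2.76 to 8.31) and 6.82-fold (3.26 to 16.5). Their sum was 4.80, 8.83, 6.75 and 5.59 CPM, with log2 ratios to 2D of -0.22, 0.66 and 0.27 and no call. H4C14 had 61, 12, 0 and 7 counts beside its much more abundant copy H4C15, and the summed pair measured 98.3, 116, 123 and 85.6 CPM, again with no call. H4C14 and H4C15 had estimates that were not whole numbers in all 4 libraries, as had 11 of the 60 members.

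**Figure D4:**
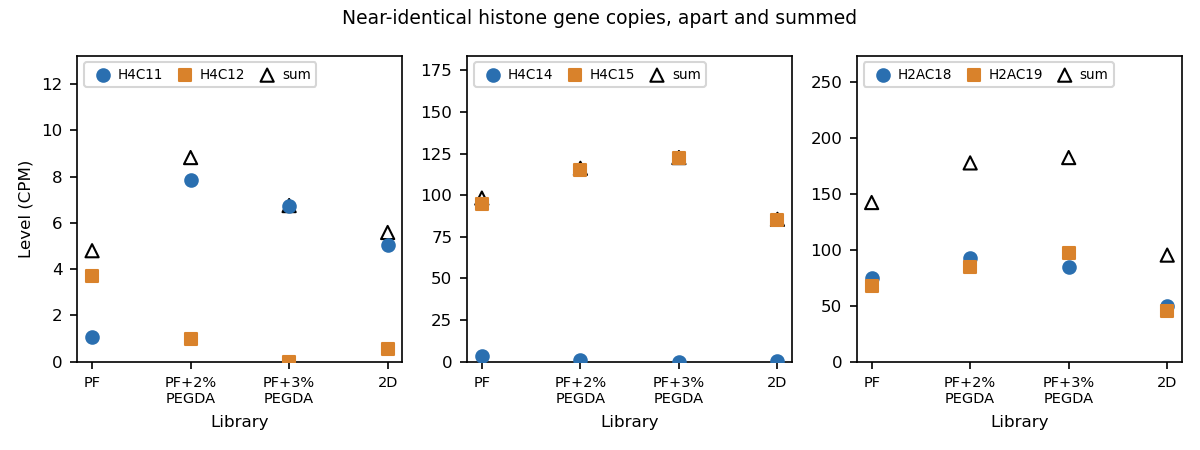
Level (CPM, linear axes from 0) of 3 pairs of near-identical copies in each library, with the sum of the pair as open triangles. The single genes H4C11 and H4C12 change places in PF while their sum stays between 4.80 and 8.83 CPM, and H2AC18 and H2AC19 stay close to each other in every library.

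Calls among the less abundant members rest on few counts. H2BU1, an H2B gene of a small separate cluster on chromosome 1, had 47 counts in PF, 16 in the 2% gel, 32 in the 3% gel and 2 in 2D. It was called higher in each gel, with ratios of 20.7-fold (5.42 to 176), 7.57-fold (1.78 to 67.8) and 17.2-fold (4.40 to 148). H3C13 had 20, 28, 9 and 1 counts, and its ratios of 17.6-fold (2.82 to 730), 26.5-fold (4.38 to 1083) and 9.69-fold (1.34 to 425) have intervals so wide that the size is not known. Of its 50-base stretches 80.4% also occur in other genes. H3C1 had 4, 5, 14 and 0 counts and passed the minimum of 1 CPM only in the 3% gel. That is also the gel in which it was called higher than 2D. With a floor of 3 counts in 2D the ratio was 5.03-fold, which is not a lower counting limit. H2AC15, H2AC17, H2BC7, H2BC9, H2BC11 and H2BC17 were called in 1 or more pairs with 63 counts or fewer. Every 50-base stretch of H2AC15 and 86.3% of those of H2AC17 also occur in other genes.

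Replacement histones stood mostly above 2D, by less than 2-fold. In PF none of 7 was called and the median log2 ratio was 0.43; in the 2% gel 2 were higher, with a median of 0.71, and in the 3% gel 1 was higher, with a median of 0.31. Over all genes 16.5%, 12.4% and 12.1% were called higher, so counts of 0 to 2 among 7 are near the background. None was called lower. H2AX, which is phosphorylated at DNA breaks, measured 169.7 CPM in PF, 211 in the 2% gel, 164 in the 3% gel and 91.6 in 2D, with 2D far below the gels. It was called higher in the 2% gel, 2.31-fold (2.16 to 2.46), and stood 1.85-fold and 1.79-fold above 2D in PF and the 3% gel. These 2 ratios pass 2-fold without the length and GC trend, and that of PF also with total-count scaling.

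H3-3A and H3-3B encode the same H3.3 protein and differed. H3-3A measured 26.2, 40.5, 45.7 and 19.4 CPM, above 2D in every gel, and was called higher in the 2% gel, 2.08-fold (1.81 to 2.41), and the 3% gel, 2.35-fold (2.04 to 2.72). Its estimates were not whole and 11.7% of its 50-base stretches occur in the pseudogene H3F3AP4. H3-3B, with 605, 756, 782 and 752 CPM, had log2 ratios to 2D of -0.31, 0.01 and 0.06 and was not called.

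The other replacement genes were called in no pair. H1-10, a linker histone, measured 192 CPM in PF, 222 in the 2% gel, 165 in the 3% gel and 204 in 2D. H2AZ1 (87.5 to 126 CPM) and H2AZ2 (126 to 206 CPM), the H2A.Z pair found around promoters, were both lowest in 2D and highest in the 2% gel. H2AJ, known from senescent fibroblasts, measured 56.9, 55.7, 39.9 and 32.2 CPM, lowest in 2D, with a log2 ratio of 0.82 in PF that was not called and is 1.00, a call, with total-count scaling.

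Between the gels, abundant replication-dependent genes mostly stood higher with PEGDA, though seldom by 2-fold. For 3% PEGDA against PF, 2 of 34 members were called higher and 3 lower, beside 3.63% higher and 7.51% lower of all genes, and for 2% PEGDA against PF 2 were higher and 5 lower, beside 2.98% and 5.56%. The lower calls of H4C12, H4C14 and H2BC17 (3% gel) and of H4C12, H4C14 and H2AC15 (2% gel) are of genes that reached 1 CPM only in PF. H3C1, called higher in the 3% gel, reached it only there. These calls thus depend on the filter. Of the 17 abundant members, 16 had a log2 ratio above 0 for 3% against PF, with a median of 0.42 and H2BC4 (-0.17) as the exception, and 15 had for 2% against PF, with a median of 0.32. H4C11, whose call ends when it is summed with H4C12, was the only one called in the first, and H4C11 and H2AC8 were called in the second. The summed level of all 53 genes was 1.37-fold (1.35 to 1.40) and 1.28-fold (1.26 to 1.31) that of PF. The trend with transcript length and GC content moved with this result too: without it, 12 of 17 and 10 of 17 were above 0, with medians of 0.24 and 0.02.

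In 3% PEGDA against PF, 0 of 30 S phase genes were called higher and 10 lower, beside 3.63% and 7.51% of all genes. Their median was -0.72, so the list moved the other way between gels. The less abundant replication-dependent genes, with a summed level over all 36 that was 0.66-fold (0.58 to 0.74) that of PF, stood on that side too. Without the near-identical copies this was 0.76-fold (0.67 to 0.86). Both ratios share the PF library with the abundant members.

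Single members give the same picture of small differences. H1-2 was 1.68-fold (1.59 to 1.77) higher in level with 3% PEGDA than in PF, H2BC12 had a log2 ratio of 0.68 and H2AC6 of 0.74, and none was called. Of the 17 abundant members, 8 had levels in the order PF, 2%, 3% (H2AC6, H2AC19, H2BC5, H2BC8, H2BC12, H2BC21, H4C8 and H4C15), and none had the opposite order. Among replacement genes H3-3A and H3-3B had that order, and H2AJ the opposite one. No replacement gene was called in any pair of gels.

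The abundant members differed little between the 2 PEGDA gels, with a median log2 ratio of 0.088 and a range of -0.38 to 0.47. For 3% against 2%, 4 replication-dependent genes were called higher and 4 lower, beside 1.85% and 2.41% of all genes, none of them among the 17 abundant members. The higher ones were H2AC15, H2AC17, H2BU1 and H3C1, and the lower ones H2BC11, H3C13, H4C12 and H4C14. All 8 had 63 counts or fewer in every library.

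The factors that make histone mRNA were counted beside the histones. Of 26 genes for transcription and 3′ end processing of replication-dependent mRNA, 6 were called higher in PF than in 2D, 3 in the 2% gel and 3 in the 3% gel, with none lower; 5 were lower in the 3% gel than in PF, beside 7.51% of all genes. The shares called higher over all genes were 16.5%, 12.4% and 12.1%, so the counts in the PEGDA gels are near the background. E2F1, a transcription factor of S phase entry, measured 58.4, 40.5, 27.9 and 13.1 CPM and was called higher in every gel. CCNE2 was the other gene called in every gel, and both are also on the S phase list. CASP8AP2 (FLASH), which acts in 3′ end cleavage, measured 23.9, 12.2, 10.4 and 10.1 CPM and was called higher in PF, with log2 ratios of 0.28 and 0.05 in the PEGDA gels that were not called. SLBP, the protein that binds the stem-loop, measured 43.3, 48.2, 44.5 and 60.2 CPM, highest in 2D and not called. NPAT, which activates histone transcription downstream of cyclin E, measured 40.8, 30.9, 30.2 and 24.6 CPM and was not called.

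Chaperones that hand new histones to replicated DNA were counted in the same way. Of 14, 6 were called higher in PF, 3 in the 2% gel and 1 in the 3% gel, with none lower, and 2 were lower in the 3% gel than in PF, beside the same shares over all genes. CHAF1A, a subunit of chromatin assembly factor 1, measured 43.2, 25.1, 18.2 and 12.7 CPM, called higher in PF. ASF1B, which carries H3 and H4, measured 46.2, 43.5, 24.9 and 7.49 CPM and was called higher in each gel. Of 24 chaperones and remodellers of replacement histones, 1 was called higher and 4 lower in PF than in 2D, beside 16.5% and 12.0% of all genes, and none in the PEGDA gels. HIRA, which deposits H3.3, measured 46.1, 31.4, 32.5 and 44.8 CPM, and ATRX 141, 105, 98.8 and 79.8 CPM, neither called.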

How the data were processed

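Poly-A RNA was sequenced from 3 EPCaTs and 1 2D coculture, 1 library each. The authors deposited expected counts, estimated reads per gene that need not be whole. Per the submitters' processing notes, FastQC, STAR and Partek were used with hg38; versions, annotation and counting method are not given in the sources used here. Per the labels' protocols, the kit was TruSeq RNA v2. Between 18.2% and 19.9% of values in a library were not whole (tolerance 0.01), and all were rounded to whole numbers. All columns were mapped (0 unmapped).

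Genes with at least 1 CPM in 1 library (14851) were kept and scaled by TMM in edgeR 4.0.16 (R 4.3.3). Log2 ratios used a prior count of 0.5 and an exact 95% interval (Python 3.11.15, scipy 1.17.1). With 1 library per group the intervals cover counting error only, and no p-value was computed. Against a library at 0 counts, the log2 ratio used the prior count alone, and only a printed fold used a floor of 3 counts in that library. Members with at least 5 CPM in their highest library are named, and calls elsewhere are named where they occur. The members, lists and tests were chosen with earlier results of these data known. 1 gene that the naming rule finds is not reported here. All 60 members matched GENCODE 29 by symbol or a RefSeq synonym. Alternatives comprised total counts, DESeq2 1.42.0 size factors, other filters, a prior of 2, members with whole values or few shared 50-mers, and a lowess fit on length and GC removed; sums of near-identical copies, and the same alternatives for the 17 abundant members, were added after seeing the data. On simulated data with counting error alone, all changes were increases in genes with a mean of at least 5 CPM. There, 100 of 100 genes changed 4-fold were recovered in every pair, so recovery at lower levels was not measured. Of 14651 unchanged genes, 39 to 60 were called.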

Additional observations from a re-analysis of the deposited data

How the results depend on the processing

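No paired analysis was possible because each group had 1 library and the labels give no replicate numbers. For the same reason no library could be left out. Of 354 values recomputed, 265 were labelled the same and 89 moved, and reversals were not scored. Counts of calls were the same within 1.5 times, and sums within the counting interval. Medians were the same within the counting interval of the gene nearest the median, which can be wide. For replication-dependent genes in PF against 2D it ran from -0.36 to 1.11. Medians of -0.27 with a minimum of 5 CPM and 0.70 without the length and GC trend were thus labelled the same as 0.27. DESeq2 size factors and a prior count of 2 moved none. Below, higher and lower are counts of called genes, PEGDA gels are named by their percentage, and the cause of a change was not tested except where fewer genes enter.

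Total counts as scaling gave replication-dependent genes 8 higher in PF and 5 in 2% against 2D and 5 lower in 3% against PF, with medians of 0.52 for 2% against 2D and -0.11 for 3% against 2%. Their summed ratios were 0.937, 1.15 and 1.20 for PF, 2% and 3% against 2D, 1.28 and 1.22 for 3% and 2% against PF, and 1.05 for 3% against 2%. For replacement genes it gave 2 higher in PF against 2D and medians of 0.82 for 2% against 2D and -0.15 for 3% against PF. Their sums were 1.15, 1.33 and 1.19 against 2D, 1.03 and 1.16 for 3% and 2% against PF, and 0.892 for 3% against 2%.

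The filter decided many replication-dependent calls. Without one, 8 were higher in PF against 2D, and 4 were higher and 6 lower in 3% against PF. With a minimum of 5 CPM fewer genes enter: 0, 0 and 1 were higher in PF, 2% and 3% against 2D, 1 and 1 lower in 2% and 3% against 2D, 1 higher and 0 lower in 3% against PF, 0 lower in 2% against PF, and 0 higher and 0 lower in 3% against 2%, with a median of 0.088.

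Among members with under 50% shared 50-mers, 2, 1 and 2 replication-dependent genes were higher and 1, 1 and 2 lower in PF, 2% and 3% against 2D. Against PF, 1 was higher and 1 lower in each PEGDA gel, and 2 were higher and 1 lower in 3% against 2%. The summed ratios were 0.959, 1.20 and 1.31 against 2D and 1.26 for 2% against PF.

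Among members with whole values, 2, 1 and 2 were higher in PF, 2% and 3% against 2D and 1 and 2 lower in PF and 3%. Against PF, 1 was higher and 1 lower in 3%, and 1 higher and 3 lower in 2%; 1 was lower in 3% against 2%, with a median of 0.049. The summed ratios were 1.42 and 1.32 for 3% and 2% against PF. Replacement genes with whole values, which leave out H3-3A and H2AZ2, had 1 higher in 2% and 0 in 3% against 2D and medians of 0.52 for 2% against 2D and -0.15 for 3% against PF. Their sums were 0.973, 1.18 and 1.07 against 2D.

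With the length and GC trend removed, replication-dependent genes had 10 higher and 2 lower in PF against 2D, 5 higher in 2% against 2D, 7 lower in 3% against PF and 1 higher in 2% against PF, with medians of 0.45 for 2% against 2D and 0.054 for 3% against 2%. Replacement genes had 1 higher in PF and 2 in 3% against 2D, with medians of -0.15 and 0.10 for 3% and 2% against PF. This trend, at a median of -0.44 for replication-dependent genes in PF against 2D, was the alternative that moved most named calls.

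With near-identical copies summed, 3 replication-dependent genes were higher in PF against 2D and 3 lower in 3% against 2D. Against PF, 1 was higher in each PEGDA gel, 1 was lower in 3% and 3 in 2%. For 3% against 2%, 2 were lower and the median was 0.039.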

Other observations

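Histone variant genes whose symbols lie outside the naming rule were measured too. H2AW, an H2A gene of a small cluster on chromosome 1, measured 24.1 CPM in PF, 42.1 in the 2% gel, 58.8 in the 3% gel and 55.8 in 2D. It was called lower in PF than in 2D (log2 ratio -1.21) and higher in the 3% gel than in PF (1.29), so PF stood below the other 3 libraries. H3-5, an H3.3 retrogene, measured 1.68, 6.18, 5.14 and 10.3 CPM and was called lower in PF than in 2D (-2.59). Of the 50-base stretches of the far more abundant H3-3B, 3.41% occur in H3-5, so reads can be shared between them. CENPA, the H3 variant of centromeres, measured 8.82, 8.31, 6.90 and 3.61 CPM, and HJURP, its chaperone, 30.3, 21, 9.98 and 4.50 CPM. HJURP was called higher than 2D in every gel, by log2 ratios of 2.74, 2.22 and 1.14, and CENPA in PF (1.28) and the 2% gel (1.20). MACROH2A1, which marks silent chromatin, measured 161, 171, 166 and 120.0 CPM and MACROH2A2 70.0, 55.9, 49.5 and 37.0 CPM; neither was called in any pair.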
